A study of Drosophila melanogaster with 3 samples.

Results

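Intronic sites of the transcription factor dmrt11E that lay near, but not at, a gene start were described in Drosophila melanogaster embryos. The sites are the peaks of chromatin immunoprecipitation and sequencing (ChIP-seq) that passed the authors' irreproducible discovery rate (IDR) threshold and met a rule of position. The summit of the peak had to lie more than 500 and at most 5000 bp from the nearest annotated transcription start site (TSS), inside a gene body, and in no exon of any transcript. Of the 6706 IDR peaks, 1547 met the rule, which is 23.1% (exact 95% binomial interval 22.1 to 24.1%, counting error only). The rule used position and no measured level, and the label of the set follows from it directly.

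The study held a single group, 3 biological replicates of the same condition. Whole embryos, pooled male and female, were collected at 2 to 10 h from 1 transgenic line that stably expressed dmrt11E with an eGFP tag at its C-terminus. Chromatin was recovered with an antibody against GFP. The authors called peaks per replicate and on the pool of all 3, always against 1 control. The labels do not say which promoter drove the fusion or whether the endogenous gene was intact. An immunoprecipitation from embryos without the tag was not analysed here, and binding of the factor and recovery of open chromatin cannot be told apart. In whole embryos a site used in few cells and a site used weakly in many cannot be told apart either.

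The factor belongs to the DM-domain family, named for Doublesex of the fly and MAB-3 of the worm, whose zinc-binding domain contacts the minor groove of DNA. Doublesex directs somatic sex differentiation, and other members act in sex-specific and in neural or other somatic development of many animals. Introns close to gene starts, the first intron above all, are a common place of transcriptional enhancers in Drosophila, which act on the start of the same gene or of a neighbour. DM-domain proteins recognise sites with a core in which ACA and TGT face each other around a single base.

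The sequence at the summits was rich in A and T, and it is shown for members with the highest signal. The 101 bases centred on the summit were read from the RefSeq copy of the dm6 assembly, on the plus strand and in 5′ to 3′ direction. Capitals mark a Fox match (TGTTTAC, the core bound by forkhead proteins, or its reverse complement) or a homeodomain match (TAATTA). The windows at ush, CG11050, Lk6, Trl and CG9663 are 5 of the 8 highest members, and the window at mbc is that of the highest member with matches to both motifs; the mbc product activates Rac in myoblast fusion.
ush, chr2L:481030-481130: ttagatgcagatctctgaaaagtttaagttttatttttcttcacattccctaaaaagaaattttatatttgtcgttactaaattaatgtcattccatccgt
CG11050, chr2L:6612664-6612764: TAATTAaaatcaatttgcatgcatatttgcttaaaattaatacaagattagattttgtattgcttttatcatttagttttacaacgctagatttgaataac
Lk6, chr3R:11761004-11761104: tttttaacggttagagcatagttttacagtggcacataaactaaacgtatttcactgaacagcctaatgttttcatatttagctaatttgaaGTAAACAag
Trl, chr3L:14759474-14759574: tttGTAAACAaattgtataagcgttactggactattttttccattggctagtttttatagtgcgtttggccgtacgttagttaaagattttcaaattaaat
CG9663, chr2L:3302142-3302242: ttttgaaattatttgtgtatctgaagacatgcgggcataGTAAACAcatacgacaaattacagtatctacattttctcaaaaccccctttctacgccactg
mbc, chr3R:23784086-23784186: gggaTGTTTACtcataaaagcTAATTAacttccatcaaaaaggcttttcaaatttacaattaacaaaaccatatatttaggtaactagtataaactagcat
The ush window held neither match. These 6 windows do not show how common the matches are. Over all members a Fox match was found at 5.37% of the summits and a homeodomain match at 12.9%. Its G+C content was 26.7%, that of CG11050 was 21.8%, and that of CG9663, the richest of these 6, was 36.6%.

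A second set shows the DM-domain core ACANTGT in capitals, in members of high signal that held a match within 50 bp of the summit. Mad encodes the transcription factor that BMP receptors phosphorylate, and Atg5 encodes a protein of autophagosome formation.
Atg5, chrX:7319220-7319320: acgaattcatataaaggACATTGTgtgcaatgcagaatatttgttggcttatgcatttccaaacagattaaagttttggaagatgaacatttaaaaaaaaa
CG9837, chr3R:8811654-8811754: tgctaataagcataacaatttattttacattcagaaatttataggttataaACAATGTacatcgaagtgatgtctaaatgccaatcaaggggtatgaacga
Mad, chr2L:3153359-3153459: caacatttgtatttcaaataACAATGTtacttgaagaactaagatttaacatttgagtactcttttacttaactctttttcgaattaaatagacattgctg
The match lay to the left of the summit at Atg5 and Mad. These windows held 25.7% to 29.7% G+C. They were chosen for their match and signal and show what a match looks like in its context.

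The strongest intronic sites lay in genes of varied function. They were chosen by the signal of the pool, which contains the 3 replicates, so high ranks in the replicates follow in large part from the choice. The member of highest signal was in the first intron of ush, the gene of a multi-zinc-finger cofactor of GATA factors in blood, heart and dorsal ectoderm. It spanned 480579 to 481317 on 2L, with its summit 1392 bp from the TSS of the neighbouring gene cbt and 4860 bp from the nearest TSS of ush. Its pooled signal was 5457, rank 8 of the IDR peaks, and the highest overlapping peaks of replicates 1, 2 and 3 ranked 11, 13 and 6. In replicate 1 the overlapping peak did not cover it reciprocally by 50%. The second, in intron 2 of CG11050 (2L, 6612467 to 6612919), ranked 14 in the IDR list and 13, 11 and 28 in the replicates. Both sites were thus among the 30 strongest peaks of each replicate.

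Several of the next sites lay in genes of kinases and of chromatin or DNA-binding proteins. Lk6, the gene of a kinase that phosphorylates the translation factor eIF4E, held a member 975 bp upstream of 1 of its TSSs (3R, 11760857 to 11761304). That member ranked 22 overall and 17, 18 and 38 in replicates 1, 2 and 3. Trl, which encodes GAGA factor, held one in its second intron (3L, 14759284 to 14759756) that ranked 26, and 36, 26 and 18 in the replicates. Tlk, the gene of the Tousled-like kinase of chromatin assembly, held one on X (3742009 to 3742436) that ranked 32, and 22, 28 and 60 in the replicates. Alh, the fly homologue of the leukaemia gene AF10, held one 591 bp from a TSS on 3R that ranked 62, and 53, 54 and 77 in the replicates. Replicate 3 gave the lowest place of the 3 replicates at Lk6, Tlk and Alh and the highest at Trl.

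Others of the 20 highest members lay in genes of signalling and cell contact. The member in the first intron of aos (3L, 16480362 to 16480754), the gene of a secreted inhibitor of the EGF receptor, had its summit 3092 bp downstream of the TSS and ranked 72. Its ranks in replicates 1, 2 and 3 were 71, 71 and 86. ImpL2 encodes a secreted protein that binds insulin-like peptides, and its member ranked 112 in the IDR list and 206, 157 and 82 in the replicates. Pli, the gene of the ubiquitin ligase Pellino, held a member of rank 100, with ranks of 74, 104 and 121. Dok, the gene of a docking protein of tyrosine kinase signalling, held a member of rank 113, with ranks of 133, 107 and 138. The body of CG1677 also holds this summit. At kirre, whose product is an immunoglobulin-type adhesion protein of myoblast fusion, the member ranked 128, with ranks of 123, 119 and 168. The member of simj, a gene of a NuRD complex subunit, ranked 120 and varied more, with ranks of 245, 115 and 104.

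The other members of the 20 lay in CG32772 (rank 35), HmgZ (rank 40, 595 bp from its TSS, also inside HmgD), CG9663 (rank 42), Tis11 (rank 75), chif (rank 92), LPCAT (rank 94), babos (rank 107) and CG13894 (rank 118). HmgZ and HmgD encode HMG-box DNA-binding proteins, Tis11 an mRNA decay factor and chif a regulator of DNA replication. Of the 20, 15 lay in a first intron of some transcript and 18 had a TSS of the host as the nearest TSS. In every replicate 19 were covered by a peak of its 6706 highest, which the choice by pooled signal favours. The range of ranks across the replicates was widest at simj and ImpL2.

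**Figure D1:**
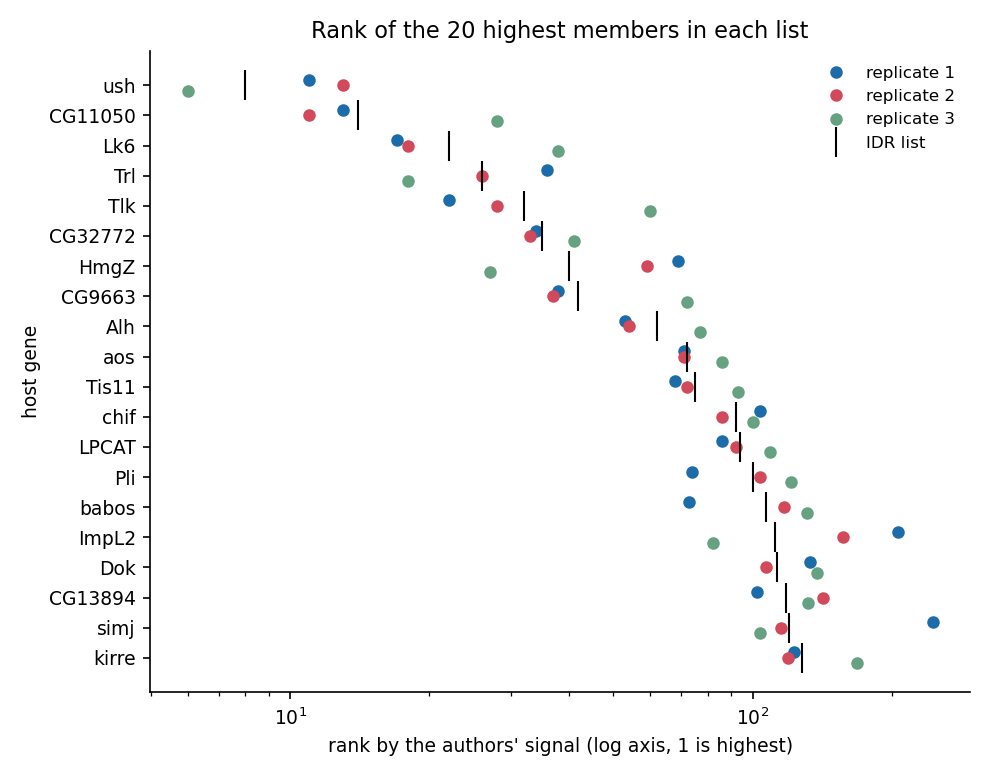
Rank by the authors' signal (log axis, 1 is the highest) of the 20 highest members, 1 row per host gene, in the IDR list (black bar) and of the highest peak that overlaps the member in each replicate (points). At ush the replicate ranks were 11, 13 and 6, and at simj 245, 115 and 104.

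As a set, the intronic sites near gene starts held the middle of the signal range and were found again in the replicates as often as other IDR peaks. Their pooled signal, the authors' score, ran from 165 to 5457 with a median of 335, and their median rank in the IDR list was 3225. Among the 6706 highest peaks of each replicate, those that met the rule had a median rank of 3183, 3243 and 3380 in replicates 1, 2 and 3, against 3402, 3384 and 3345 for the rest. Their part of the strongest peaks was a little below their part of the weaker ones. Peaks that met the rule made up 23.5%, 23.4% and 22.9% of the 6706 highest in replicates 1, 2 and 3 and 24.2%, 25.7% and 24.2% of the peaks below them, a difference of −1.49 ± 0.808 percentage points (exact sign-flip permutation test, two-sided, p = 0.25). The difference in rank was −108 ± 130 places (mean ± SD over 3 replicates) and changed sign in replicate 3 (same exact permutation test, p = 0.5). With 3 replicates this exact permutation test cannot go below p = 0.25, so none of the 20 comparisons over replicates given here or behind these results could pass 0.05. In 15 of the 20 the sign was the same in every replicate. The labels call the replicates biological but name no separate collections, so whether the spread holds differences between collections is not known.

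A member was counted as covered in a replicate when a peak of that replicate's 6706 highest overlapped it reciprocally by at least 50%. In every replicate 737 members were covered (47.6%, exact 95% interval 45.1 to 50.2%), against 46.8% of all IDR peaks. A further 433 were covered in 2 replicates, 273 in 1 and 104 in none. Members not covered were mostly overlapped to a lesser extent or by a peak of lower rank. Only 6, 11 and 12 members had no overlapping peak of any rank in replicates 1, 2 and 3. Replicates 1, 2 and 3 covered 63.7%, 76.5% and 76.3% of the members, so replicate 1 covered fewest. The other IDR peaks gave 63.7%, 75.7% and 76.5%. The difference was 0.198 ± 0.590 percentage points (exact sign-flip permutation test, two-sided, p = 0.75). Without replicate 2 the difference was −0.133 percentage points, a change of sign within the spread.

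Set against the 871 deep intronic peaks, which lay more than 5000 bp from any TSS, the sites near gene starts were covered more often in each replicate. Deep intronic peaks were covered in 61.1%, 72.6% and 73.2% in replicates 1, 2 and 3. The difference was 3.22 ± 0.680 percentage points (exact sign-flip permutation test, two-sided, p = 0.25). In rank the sites near gene starts had a median nearer the top in each replicate, by −263 ± 114.9 places (exact sign-flip permutation test, p = 0.25). Against promoter peaks, within 500 bp of a TSS, they were covered less often in each replicate, by −1.30 ± 0.911 percentage points (p = 0.25, same exact test).

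The summits of the replicates lay close together, set against a median peak width of 335 bp for the members. A replicate peak of any rank that overlapped reciprocally by 50% was found for 1206, 1321 and 1334 members in replicates 1, 2 and 3. The median distance of its summit from that of the pooled peak, which contains the replicate, was 17, 13 and 10 bp. Between replicates the median distance was 23.5 bp for replicates 1 and 2 (1152 members matched in both), 25 bp for 1 and 3 (1142) and 21 bp for 2 and 3 (1209), with 75.7%, 73.6% and 78.5% within 50 bp. The required overlap limits these distances. Replicate 1 had the fewest matches.

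The sites thinned out with distance from the gene start. The positions of the genome that meet the rule add up to 24.6 Mb, or 17.9% of the placed genome, and held 62.9 members per Mb. The density was 88.7 per Mb between 500 and 750 bp from a TSS, 66.8 between 1000 and 1500 bp, 57.6 between 2000 and 3000 bp and 51.3 between 4000 and 5000 bp. In the strongest peaks of replicates 1, 2 and 3 it was 96.6, 92.2 and 89.1 per Mb in the nearest bin and 51.27, 50.99 and 50.70 in the farthest, so the 2 bins did not overlap. The difference was 41.6 ± 3.47 per Mb (exact sign-flip permutation test, two-sided, p = 0.25). The median distance was 1868 bp (quartiles 1011 and 3066.5 bp), against 2144 bp over all positions that meet the rule. The weaker peaks of each replicate, below its 6706 highest, thinned out as well, from 319 ± 15.8 to 180.3 ± 13.97 per Mb, so the fall was not particular to the strong sites.

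First introns held most of the sites, and at every distance they held more per Mb than later introns. Of the members, 1133 (73.2%, exact 95% interval 70.96 to 75.43%) lay in the first intron of some transcript, against 57.4% of the positions that meet the rule. First introns held 80.2 members per Mb and positions in later introns only held 39.5. In the replicates the densities were 83.8, 81.8 and 80.1 against 37.1, 39.3 and 38.3 per Mb, a difference of 43.7 ± 2.64 (exact sign-flip permutation test, two-sided, p = 0.25). Between 500 and 1000 bp from a TSS first introns held 99.5 members per Mb and later introns 55.9. Between 3000 and 5000 bp they held 66.2 and 37.5. In first introns the density fell over every step of distance, and in later introns it was level beyond 1000 bp, at 37.3, 36.1 and 37.5 per Mb. In the replicates the share in first introns was 74.3 ± 0.866% for the strongest peaks that met the rule and 68.9 ± 0.823% for the weaker ones. The difference was 5.35 ± 1.47 percentage points (same sign in 3 of 3 replicates, exact sign-flip permutation test, p = 0.25). The weaker peaks too lay above the 57.4% of positions, so the excess in first introns was not particular to the strong sites.

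**Figure D2:**
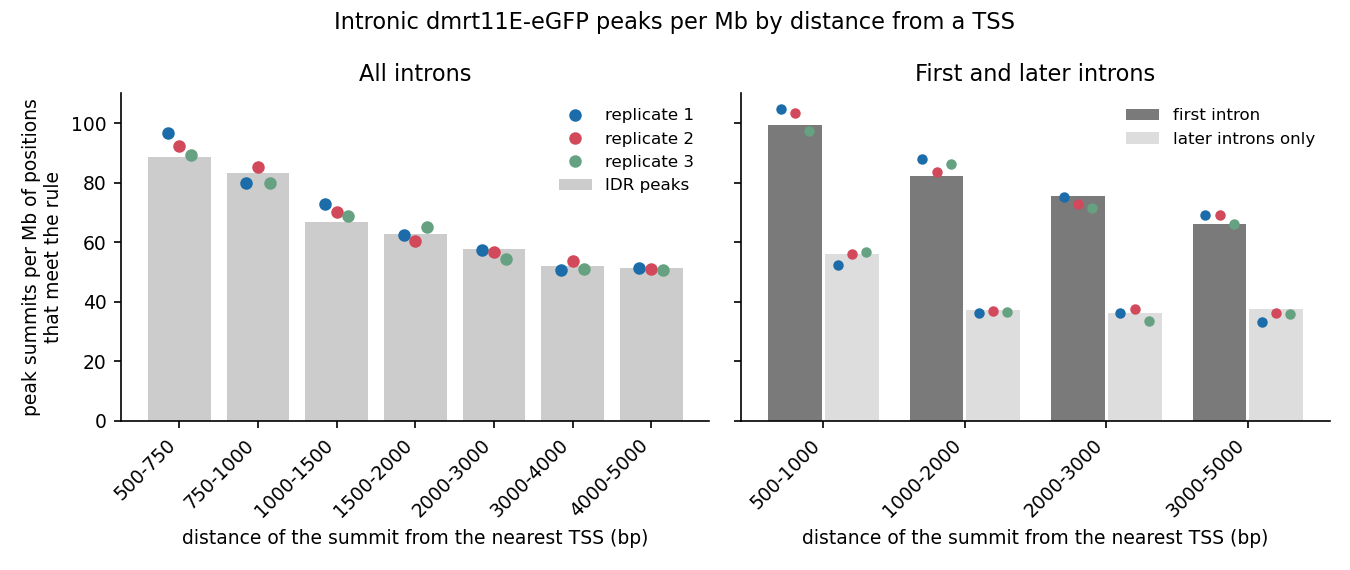
Peak summits per Mb of positions that meet the rule (vertical axis) by distance from the nearest TSS in bp (horizontal axis), for all introns (left) and for first and later introns apart (right). Bars are the IDR peaks and points the strongest 6706 peaks of replicates 1, 2 and 3; the density falls from 88.7 to 51.3 per Mb, and first introns stand above later introns in every bin and replicate.

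The shortest host intron around a summit had a median length of 7869 bp. The length over all positions that meet the rule is not given here, so this is no trait set apart from the rule. The nearest TSS belonged to the host gene for 1180 members (76.3%) and to another gene for 367. The summit lay downstream of the nearest TSS in 986 members (63.7%, exact 95% interval 61.3 to 66.1%), close to the 65.5% of positions that do so. Of those nearest to a TSS of the host, 844 were downstream of it and 336 were upstream, and the latter lie in introns of longer transcripts of the same gene that start farther away. After merging overlaps, 304 of 1520 regions (20%) had another IDR region within 1000 bp, and the median distance to the nearest was 2424.5 bp. The same values for the other IDR peaks are not given here.

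On the rule's limits the values were as follows. Just inside the limit of 500 bp lay members in CG14434 and MESR3, both with the summit 501 bp from a TSS and ranks of 509 and 2009. Just outside it, at 500 bp, lay a peak of lncRNA:CR44619 with rank 58. Just inside the limit of 5000 bp lay a member of stumps, the gene of an adaptor of FGF receptors, 4995 bp from a TSS and with rank 1648. Just outside lay peaks in tara and Smr, both at 5001 bp, with ranks of 4238 and 4253, and one in cno at 5002 bp with rank 178.

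The sites were denser on the X than on the autosomes, in contrast to the other IDR peaks. The X held 359 members (23.2%, exact 95% interval 21.1 to 25.4%) and 19.7% of the positions that meet the rule, or 74.2 members per Mb. Among the other IDR peaks 16.3% were on the X, and their density per Mb of positions open to them was not computed. In the strongest peaks of replicates 1, 2 and 3 the X share was 20.9%, 21.9% and 23.9% for those that met the rule and 15.3%, 15.8% and 16.6% for the rest, with no overlap. The difference was 6.34 ± 0.914 percentage points (exact sign-flip permutation test, two-sided, p = 0.25). Deep intronic peaks had a share of 25.03% on the X, so the higher share was not particular to the sites near gene starts. Weaker pooled peaks that met the rule had 20.97% on the X. In the replicates the strongest peaks that met the rule exceeded the weaker ones by 2.63 ± 0.918 percentage points (same exact test, p = 0.25). Per Mb of positions that meet the rule the X exceeded the autosomes by 10.0 ± 6.13 (exact p = 0.25, same test). In replicate 1 arm 2R was denser than the X, at 68.7 against 67.8 per Mb. Arms 3R, 3L, 2R and 2L held 336, 323, 281 and 243 members, at 60.2, 64.6, 64.3 and 54.7 per Mb, chromosome 4 held 5 and the Y none.

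The 1547 members lay in 914 host genes, where the host is the gene whose body holds the summit. Of the hosts, 593 held 1 member, 179 held 2 and 142 held 3 or more. A total of 870 hosts were protein-coding, out of 9111 protein-coding genes with at least 1 position that meets the rule (9.55%). This share rose with the room a gene offers: it was 0.726% of genes with up to 1000 bp of such positions and 46.5% of genes with over 12000 bp. Of the hosts, 225 also held a deep intronic IDR peak, and the share among genes that are no hosts is not given here. Leaving out replicate 2 or 3 left 565 or 600 hosts, with 3514 or 3726 IDR peaks to draw on.

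The genes with most members held them in places side by side. CG1677 on X, a gene with introns that enclose other genes, held 14 members, of which 4 lay between 7291843 and 7294559. The strongest was of rank 207, with its summit 717 bp from the TSS of brk, the gene of a repressor of BMP targets. The peaks matched to it ranked 495, 350 and 95 in replicates 1, 2 and 3. CG43658 held 12 members, the strongest of rank 692 and ranks of 613, 598 and 916 in the replicates. The gene shn, whose large zinc-finger protein acts with Mad in BMP responses, held 11 members over 34.5 kb of positions, of which the strongest had rank 318. The peaks of the replicates that overlap it best in rank were at 727, 351 and 227. Tlk held 10 members, from rank 32 down to 5737, and pnt, the gene of an ETS activator downstream of the EGF receptor, held 9, from rank 868 down to 6640. In pnt a pair of members overlapped (23332568 to 23332887 and 23332830 to 23332937). Of the 9 members there, 5 were covered in every replicate, 1 in 1 replicate and 3 in none.

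Genes with an intronic site near a start more often had an IDR peak at a promoter of their own as well. An IDR summit lay within 500 bp of a TSS of 390 of the 870 protein-coding hosts (44.8%, exact 95% interval 41.5 to 48.2%) and of 27.8% of all 9111 genes. The 8241 genes with such positions but no member had a share of 26.0%. In the strongest peaks of replicates 1, 2 and 3 the share was on average 46.7% ± 3.45 (SD, n = 3) for hosts and 25.8% ± 0.0694 for the other genes, with no overlap. The difference was 20.9 ± 3.48 percentage points (exact sign-flip permutation test, two-sided, p = 0.25). The difference was present at every amount of room for a site, with 37.7% against 30.6% for genes of 1000 to 3000 bp and 48.3% against 16.5% for genes of over 12000 bp. Protein-coding hosts of deep intronic peaks had a share of 39.4%, between that of the hosts here and that of the other genes. Without replicate 2, where 3514 IDR peaks were kept, 29.6% of the hosts and 15.1% of the other genes had a promoter summit. With the limit of both promoter and rule at 200 bp the shares were nearer to each other, at 21.95% and 18.3%.

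The hosts included many genes of signalling pathways. The 21 gene lists are described by their counts, and members are also given per 100 kb of positions that meet the rule, to allow for long introns. Over all protein-coding genes this was 5.86 per 100 kb. In 17 of the 21 lists the value was higher, in 16 of these also in every replicate, so a value above the background is common among developmental genes and is not particular to one list.

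**Figure D3:**
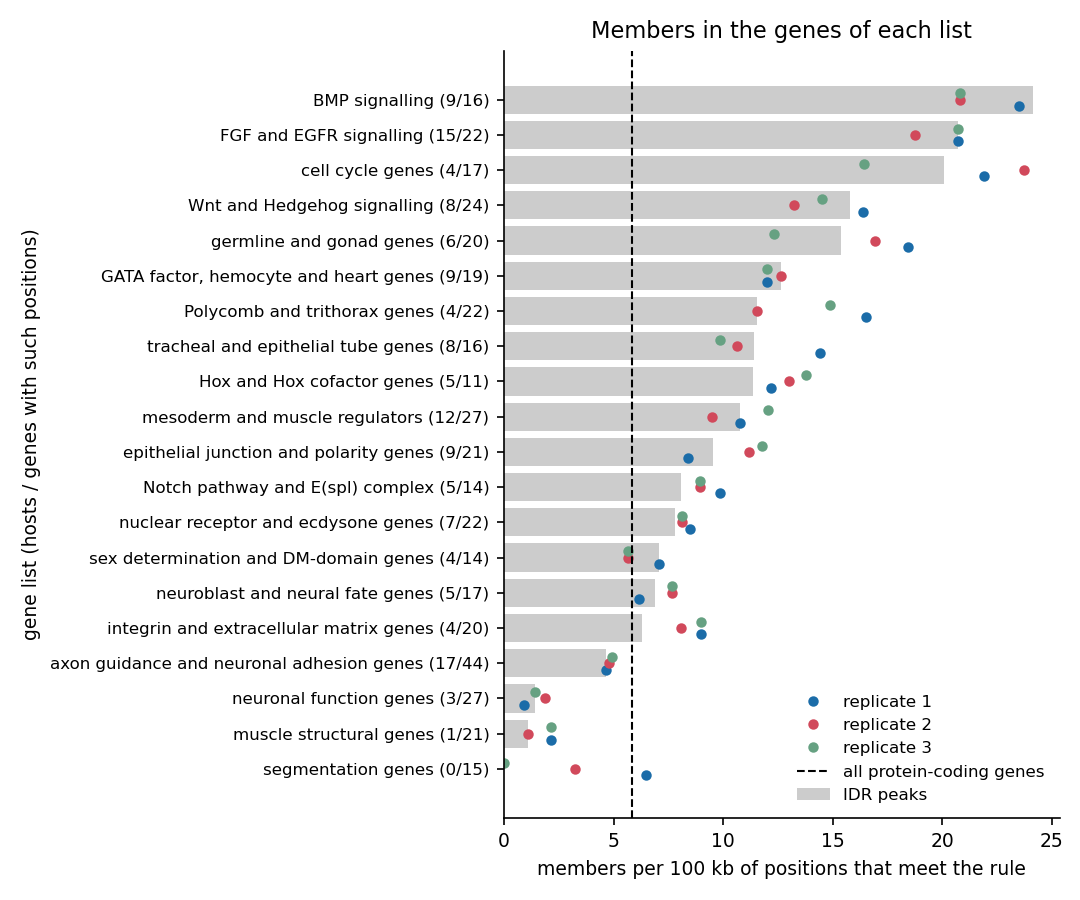
Members per 100 kb of positions that meet the rule (horizontal axis) in the genes of each list reported here (rows; hosts out of genes with such positions in brackets). Bars are the IDR peaks, points the strongest peaks of each replicate that meet the rule, and the dashed line all protein-coding genes (5.86); BMP signalling (24.2) and FGF and EGFR signalling (20.7) stand highest and neuronal function (1.40), muscle structural (1.08) and segmentation genes (0) lowest.

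BMP signalling, the pathway of dpp that patterns the dorsal side of the embryo, had the highest density of the lists in the IDR set. In replicate 2 cell cycle genes were higher, at 23.7 against 20.8 members per 100 kb. Of 16 genes with room for a site, 9 were hosts, with 36 members in all, or 24.2 per 100 kb (21.7 ± 1.55 in the replicates). The strongest was in dlp, the gene of a glypican that binds secreted ligands, with rank 169 and ranks of 256, 248 and 111 in replicates 1, 2 and 3. The next was in shn. The other hosts, named without regard to rank, were Mad (3 members), tkv (8), put (1), wit (1), magu (2), dally (3) and Dad (2). By role, dlp, dally and magu act on the ligands outside the cell, tkv, put and wit are receptors, Mad and shn act in the nucleus and Dad inhibits the pathway inside the cell. The ligand gene dpp held no member over 12402 bp of positions that meet the rule, and the ligand genes gbb and scw have no such positions.

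The FGF and EGFR pathways, which act through Ras in mesoderm spreading, tracheal branching and ectodermal patterning, had 15 of 22 genes as hosts. They held 42 members, or 20.7 per 100 kb (20.1 ± 1.14 in the replicates). The strongest was that of aos, described above, and the second was in aop, the gene of the ETS repressor Yan, with rank 222 and ranks of 173, 205 and 280. The hosts included ligand genes (vn, bnl, ths and pyr), the protease gene ru and S, which act in ligand release, the receptor gene Egfr, cytoplasmic components (drk, Raf and stumps), the ETS factor genes pnt and aop, and the inhibitors aos and sty. Their best members ranked from 72 at aos to 5785 at pyr.

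Wnt and Hedgehog signalling had 8 hosts of 24 genes, with 15.8 members per 100 kb. The strongest were in nkd, the gene of an inhibitor of Wnt signalling (rank 214, and 252, 244 and 177 in the replicates), and in fz, a receptor gene (rank 571, and 566, 585 and 614). Notch pathway genes had 5 hosts of 14, at 8.07 per 100 kb. The symbol Dl was not matched in the annotation, so that gene is not counted here. The strongest of these were in mam, the gene of a coactivator (rank 895), and in fng, the gene of a glycosyltransferase that modifies Notch (rank 1209).

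Cell cycle genes had only 4 hosts of 17, yet 20.1 members per 100 kb over 54.7 kb of positions. CycE, the gene of the cyclin of S-phase entry, held 3 members, the strongest of rank 221 and 409, 305 and 133 in replicates 1, 2 and 3. E2f1, the gene of a transcription factor of S-phase genes, held 4, the strongest of rank 307 and 326, 404 and 268 in the replicates. Germline and gonad genes had 6 hosts of 20 (15.4 per 100 kb), led by zfh1, which acts in the somatic gonad and mesoderm (rank 188), and Stat92E, the effector of JAK signalling (rank 1006). Polycomb and trithorax genes had 4 hosts of 22 (11.6 per 100 kb), led by Trl and by trx, the gene of a histone methyltransferase (rank 192, and 179, 189 and 185 in the replicates).

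Regulators of tissue identity were hosts at intermediate densities. Mesoderm and muscle regulators had 12 hosts of 27 (10.8 per 100 kb), led by zfh1 and by nau, the fly MyoD (rank 1326). GATA factor, hemocyte and heart genes had 9 of 19 (12.7 per 100 kb), led by ush, with 7 members, and by Pvf3, the gene of a ligand that guides hemocytes (rank 941). Tracheal and epithelial tube genes had 8 of 16 (11.4 per 100 kb), led by rib (rank 297) and apt (rank 795). Hox and Hox cofactor genes had 5 of 11 (11.4 per 100 kb), led by Antp (rank 408) and Abd-B (rank 621). Epithelial junction and polarity genes had 9 of 21 (9.52 per 100 kb), led by cno, the gene of the junction protein Canoe (rank 209), and Mcr (rank 435).

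Lists nearer to the background were nuclear receptor and ecdysone genes (7 hosts of 22, 7.81 per 100 kb), neuroblast and neural fate genes (5 of 17, 6.91), and integrin and matrix genes (4 of 20, 6.30). E2f1, which is no nuclear receptor, is also on the first of these lists and led it, followed by Hr4 (rank 433). The neuroblast list was led by grh, the gene of an epithelial and neuroblast transcription factor (rank 133), and pros, which directs neural differentiation (rank 459). The integrin list was led by mew, an alpha-integrin gene (rank 278), and LanA (rank 468).

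Genes of differentiated neurons and muscles held fewer sites per 100 kb than all protein-coding genes, by a small margin in the first list below. Axon guidance and neuronal adhesion genes had 17 hosts of 44 (38.6%) and 4.65 members per 100 kb over 753 kb. The 9.55% of all genes is no like measure, as the median room was 12.6 kb in this list and 0.458 kb over all genes. Of all genes with over 12000 bp of such positions 46.5% were hosts, and of those with 6000 to 12000 bp 33.4%. The strongest members of this list were in kirre and fra, the netrin receptor gene (rank 146). Neuronal function genes, such as those of ion channels and synaptic proteins, had 3 hosts of 27 and 1.40 members per 100 kb. All 3 hosts encode neuronal RNA-binding proteins, and they are fne (rank 2518), Rbp9 (rank 4139) and elav (rank 4309). Muscle structural genes had 1 host of 21, Zasp66 (rank 3016). These 3 lists lay below all protein-coding genes in every replicate. Segmentation genes had 0 hosts of 15 over 30.9 kb of positions, and peaks of replicates 1 and 2 gave 6.46 and 3.23 per 100 kb there, 1 of them above the background.

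Sex determination and DM-domain genes had 4 hosts of 14 (7.08 per 100 kb), and the members there were weak or of uneven rank. The intronic member of dmrt11E itself (X, 13369504 to 13369907) had rank 3364 and ranks of 1751, 2708 and 5813 in replicates 1, 2 and 3. Whether the transgene left extra copies of this locus is not given in the labels. The member of dsx lay 597 bp upstream of a TSS on 3R (7963291 to 7963524), with rank 2205 in the IDR list. The peaks matched to it ranked 7909 and 6493 in replicates 1 and 2, and none was matched in replicate 3. The highest peaks that overlapped it to any extent ranked 2112, 6493 and 622 in replicates 1, 2 and 3, so its place depended on the overlap required. In dmrt93B and dmrt99B there was no member, over 1.57 and 2.00 kb of positions that meet the rule.

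A trough of G+C marked the summits of the intronic sites near gene starts. Mean G+C content was 31.1% in the 101 bp at the summit, 44.0% at 200 bp to either side and 42.2% at 500 bp, against 39.2% over all positions that meet the rule. For the strongest peaks of replicates 1, 2 and 3 that met the rule it was 33.6%, 31.6% and 30.3% at the summit and 41.8%, 42.0% and 42.5% at 500 bp, with no overlap. The difference was −10.3 ± 2.03 percentage points (exact sign-flip permutation test, two-sided, p = 0.25). Single sites varied: from the 5th to the 95th percentile the G+C of the summit window ran from 20.8% to 45.5%.

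The trough was deeper at stronger sites. In 4 groups of 386 or 387 members from strongest to weakest, G+C at the summit was 28.6%, 30.9%, 32.1% and 32.7%, and at 200 bp it was 45.7%, 43.6%, 44.4% and 42.4%. The 5703 weaker pooled peaks that met the rule had 38.4% at the summit and 41.3% at 200 bp. The summit value of a replicate's strongest peaks lay below that of its weaker peaks by −6.89 ± 1.17 percentage points (same sign in 3 of 3 replicates, exact p = 0.25). The trough was shared by other IDR peaks, with 31.3% at the summit of deep intronic peaks, 31.6% at promoter peaks and 30.5% at intergenic peaks near a gene start.

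**Figure D4:**
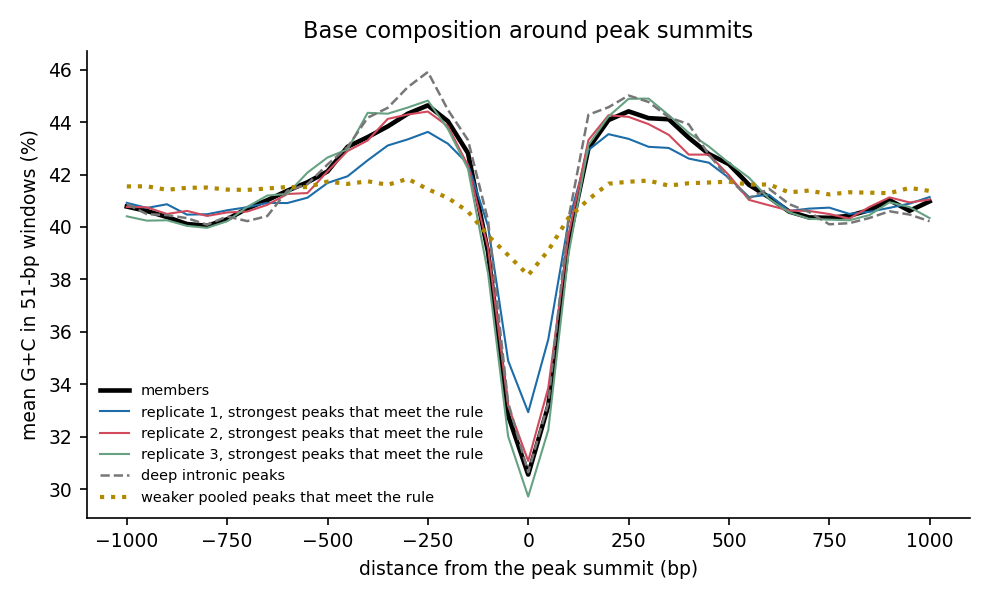
Mean G+C content (percent, windows of 51 bp, vertical axis) by distance from the peak summit in bp, for the 1547 members, the strongest peaks of each replicate that meet the rule, deep intronic IDR peaks and the weaker pooled peaks that meet the rule. The members, replicates and deep intronic peaks share a narrow trough at the summit between higher shoulders, and the weaker peaks have a shallower one.

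Motif matches were read against this base composition. Each of 30 motifs was searched on both strands in the 101 bp at the summit and in windows of the same width centred 500 bp to either side. A ratio above 1 means more members with a match at the summit than in a flanking window. The same ratio was formed for other orders of the same letters, which have the same base composition. A match is a description of the sequence and not evidence that a protein binds there.

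The DM-domain core was uncommon, but more frequent at the summit than beside it. ACANTGT, the core shown above in capitals, was found at 51 members (3.30%, exact 95% interval 2.46 to 4.31%), against 1.68% in the flanks, 2.37% of windows over all positions that meet the rule and 3.37% of the other IDR peaks. The ratio was 1.96, and 1.73, 1.64 and 1.86 in the strongest peaks of replicates 1, 2 and 3, against 1.27 for other orders of its letters. It matched 14, 15, 15 and 7 members in the same 4 groups from strongest to weakest. Around the summits it was spread over about 300 bp and not confined to the centre: 1.87% and 2.00% of members held it in the windows at 125 and 75 bp to the left, 1.49% and 1.62% in the windows next to the summit, and 1.68% in that at 125 bp to the right. The shorter motif GATACA had a ratio of 1.14, below the 1.19 of other orders.

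The Fox motif had the highest ratio of the 30 in the IDR set, though not in replicate 3, where it was below homeodomain (2.19) and the DM-domain core (1.86) among others. TGTTTAC was found at 83 members (5.37%, exact 95% interval 4.30 to 6.61%), against 2.07% in the flanks, 2.39% of windows over all positions that meet the rule and 3.31% of other IDR peaks. The ratio was 2.59, and 1.28 for other orders of its letters. It differed between replicates, at 3.51, 2.71 and 1.57 in replicates 1, 2 and 3, and it was 1.59 when only IDR peaks covered in both replicates 1 and 3 were kept, below the DM-domain core (2.07) and homeodomain (1.79). With those covered in both replicates 2 and 3 it was 1.90, also below these motifs (2.00 and 2.13). In the upper 3353 IDR peaks it was 2.59, against 2.64 for the DM-domain core. Its matches were centred, with 3.10% and 2.33% of members in the windows next to the summit and 0.840% and 0.905% in those at 475 bp. The number of members with a match rose as signal fell, at 15, 19, 24 and 25 from the strongest to the weakest group. The exact 95% intervals of the strongest (2.19 to 6.31%) and weakest group (4.23 to 9.41%) overlapped. Promoter peaks had a ratio of 1.76, deep intronic peaks 1.85 and intergenic peaks near a gene start 0.976; the difference from these was not tested.

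The homeodomain motif TAATTA was common and was not raised beyond its letters. It was found at 199 members (12.9%, exact 95% interval 11.2 to 14.6%), with a ratio of 1.95 against 2.38 for other orders of its letters. The Twist E-box CATATG, bound by a mesoderm regulator, was found at 89 members with a ratio of 1.37 against 1.28, and AP-1 (TGANTCA) at 51 with 1.52 against 1.27. Of the 30 motifs, 9 had a ratio above 1 in every replicate and 13 below 1 in every replicate. At the lower end, GAGAGAG, the motif of GAGA factor, was found at 8 members (0.517%) against 3.49% in the flanks and 1.45% of windows over all positions that meet the rule. The ratio to the flanks was 0.148, while other orders of its letters had 0.353, and with windows of 100 bp to either side of the summit it was 0.394. In replicates 1, 2 and 3 its ratio was 0.308, 0.207 and 0.155.

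Motifs found at promoter peaks were rare at the members, as they were over all positions that meet the rule. DRE (TATCGATA), bound by DREF at housekeeping promoters, was found at 2 members (0.129%), in 0.206% of windows over those positions and at 2.73% of promoter IDR peaks. The M1BP motif GGTCACACT was found at 0 of 1547 members, an exact 95% interval of 0 to 0.238%, in 0.0439% of those windows and at 0.848% of promoter peaks. Zelda (CAGGTAG), an activator of the early zygotic genome, had 7 matches with a ratio of 0.700, and the Snail box CAGGTG had 28 with 0.636. GATAAG, read by GATA factors, had 96 matches and a ratio of 1.16, as had other orders of its letters.

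**Figure D5:**
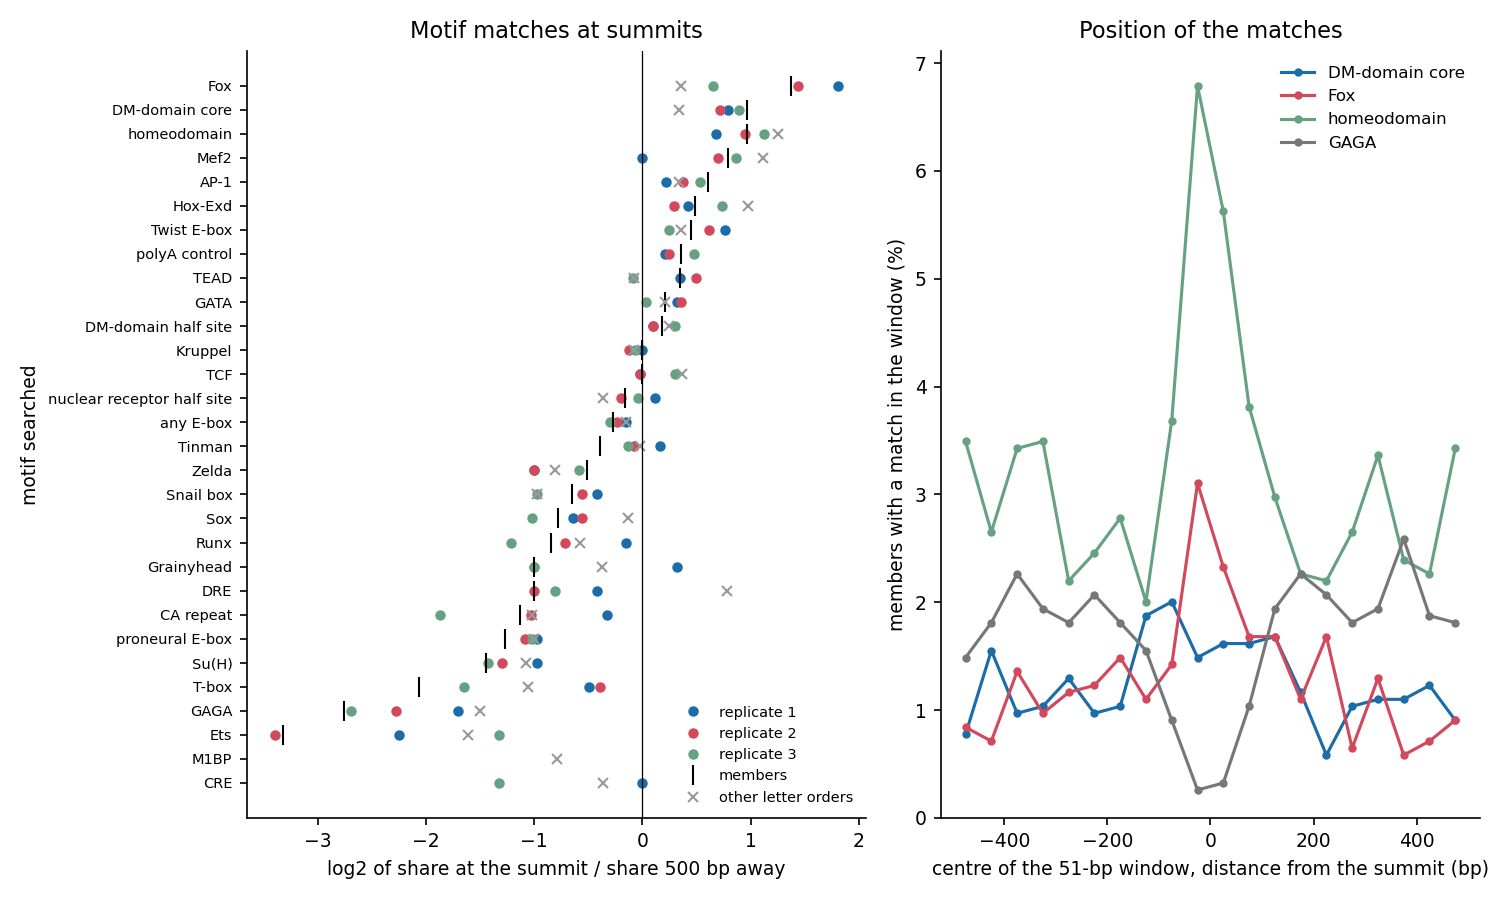
Left, for each of 30 motifs, the log2 of the share of peaks with a match within 50 bp of the summit over the share 500 bp away, for the members (bar), each replicate's strongest peaks that meet the rule (points) and other orders of the motif's letters among the members (crosses; ratios of 0 are not drawn). Right, the percent of members with a match in windows of 51 bp by distance from the summit in bp: Fox and homeodomain matches peak at the summit, DM-domain matches form a low broad rise and GAGA matches dip.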

How the data were processed

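Peaks of 3 replicates, of the replicates pooled and of the IDR set were deposited by the authors for assembly dm6. Per the file headers, peaks were called per replicate and on the pool against 1 control. Aligner and caller (settings included) were not given in the sources used here; every row deposited by the authors holds a summit, a score (the signal value, whose scale differs by list) and a −log10 q-value. Only the score was used, to rank peaks within a list. The −log10 q-value deposited by the authors was not used in any result. Each replicate list and the pooled list hold 30000 peaks, and read depth is unknown, so precision comes from the number of peaks and the spread of 3 replicates. Apart from this q-value, no column of per-sample values was left unused (0 columns).

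Genes and TSSs came from Ensembl release 115 (BDGP6.54), without transposable element genes, and sequence from RefSeq's copy of dm6. In each replicate the 6706 highest peaks, as many as in the IDR set, served as its strongest peaks, and comparisons used an exact two-sided sign-flip permutation test over replicates. Of 476 list symbols, 470 distinct genes matched, directly or through a RefSeq synonym. The members, lists and tests were chosen with earlier results of these data known. Named are the hosts of the 20 members of highest signal, the 5 hosts with most members, for each list the 2 genes with the highest member, dmrt11E, dsx, dmrt93B and dmrt99B, and the peaks nearest to the rule's limits; other hosts of the BMP, FGF and EGFR, neuronal function lists and the genes behind the printed sequences were named after their values were seen. Some sequences and host genes, and the values of 1 of the lists, are not reported here. The code was tested on simulated data. Tools were Python 3.11.15, numpy 2.4.6, pandas 2.3.3, scipy 1.17.1 and matplotlib 3.10.9.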

Additional observations from a re-analysis of the deposited data

How the results depend on the processing

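No paired analysis was possible because the study has 1 group, so the replicate numbers pair no samples between groups; the tests over replicates compare classes of peaks within each replicate. Settings that leave out a replicate keep only IDR peaks covered in both other replicates (4164, 3514 and 3726 peaks without replicates 1, 2 and 3), so their counts are lower by construction. Of 252 alternative values, 170 stayed within the spread between replicates or 1.5 times the count or, for a tested difference, kept its sign, 77 moved and 5 changed sign. Differences and motif counts from the replicates alone were not run with the upper 3353 or merged IDR peaks, which do not enter them. Shares of lists against all genes, the X, the other genes' promoter share and base composition were added as alternatives after seeing the data. Read depth is unknown, and no value here has a limit from depth.

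The share of IDR peaks that met the rule was 28.35% for summits over 200 bp from a TSS, 17.4% over 1000 bp, 17.06% up to 3000 bp, 21.65% with protein-coding TSSs only, 23.53% in the upper 3353 IDR peaks, and 22.91 to 23.56% with a replicate left out. Coverage in every replicate was 69.3% for an overlap of 1 bp, 7.822% for 80%, 29.99% with 3353 top peaks, 62.12% with 10000, 75.03% in the upper 3353 IDR peaks, and 52.04 to 62.12% with a replicate left out. Its difference from other IDR peaks changed sign with 10000 top peaks (−0.06935 percentage points), over 1000 bp (−0.1996) and for merged peaks (−0.06969), and lay between −0.1331 and 0.4323 with a replicate left out. The cause was not tested. As percentiles, the median rank was 48.09, 50.07 over 1000 bp and 49.6 in the upper 3353, and its difference from other peaks was −1.615 and turned to 0.3983 with 10000 top peaks.

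The share in first introns was 71.04% over 1000 bp, 76.84% up to 3000 bp, 74.52% with protein-coding TSSs, 76.17% in the upper 3353 and 74.71 to 75.16% with a replicate left out. Hosts numbered 544 in the upper 3353 and 565 to 648 with a replicate left out. The share of hosts with a promoter summit was 21.95% with promoters and rule at 200 bp, 55.26% at 1000 bp, 29.79% in the upper 3353 and 29.63 to 32.74% with a replicate left out. For the genes that are no hosts it was 18.3% and 32.03% at these limits, 14.31% in the upper 3353 and 15.06 to 17.62% with a replicate left out. The X share stayed 5.833 to 7.282 percentage points above that of the other peaks, the count of motifs above 1 in every replicate was 9 to 13, and the G+C difference moved by less than the spread in every setting run for it. BMP genes kept 3.58 to 5.02 times and FGF and EGFR genes 3.17 to 3.85 times the density of all genes in every setting run.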

Other observations

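Among 1200 sequences of 7 bases found within 50 bp of at least 30 summits, some were more frequent at the summit than others of the same G+C content. They were picked by their values and are a description with no test. GTATGAA was found at 39 members (2.52%) against 0.646% in windows 500 bp away, a ratio of 3.90, and at least 2.76 in each of the 3 replicates. All 7-mers with 2 G or C letters had a ratio of 1.32. CAGTGCA was found at 44 members (2.84%) against 1.52% in the flanks, a ratio of 1.87, and 1.76, 1.38 and 1.82 in the replicates. All 7-mers with 4 G or C letters had a ratio of 0.552. No protein is named here for either sequence.

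In the pooled list, intronic sites near gene starts held 24.0% of the 3000 highest peaks, 22.6% and 22.3% of the next steps of 3000, and between 25.2% and 26.3% of each of the 7 steps below, down to rank 30000.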
